A study of Mus musculus with 15 samples.

Results

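The genes described here are 43 genes of DNA replication and of the G1/S step of the cell cycle, chosen by symbol. All 43 were listed in both deposited tables, among 16470 genes in the DMSO table and 16428 genes in the ibrutinib table. They were read in cells from leukemic spleens of Eμ-TCL1 mice and of Eμ-TCL1;p53R172H/+ mice (called p53-mutant here), all on a C57BL/6 background and all carrying the TCL1 transgene. The transgene is driven by an immunoglobulin heavy-chain enhancer and promoter, active in the B-cell lineage, and p53-mutant mice are in addition heterozygous for a missense allele of Trp53. Spleens were disrupted mechanically, with no sort named in the methods, and the cells were cultured for 24 h with DMSO as vehicle or with 5 μM ibrutinib, an inhibitor of Bruton's tyrosine kinase. The groups held 3 Eμ-TCL1 libraries in DMSO (replicates 2, 3 and 4), 5 p53-mutant libraries in DMSO (replicates 1 to 5), 3 Eμ-TCL1 libraries in ibrutinib (replicates 1, 3 and 4) and 4 p53-mutant libraries in ibrutinib (replicates 1, 3, 4 and 5).

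Before a cell copies its DNA, the origin recognition complex, Cdc6 and Cdt1 load the ring of MCM proteins, Mcm2 to Mcm7, onto origins. Cyclin E with Cdk2 and the Dbf4-dependent kinase then let Cdc45, the GINS complex and Mcm10 turn the loaded ring into an active helicase, and polymerases, the sliding clamp Pcna, its loader and a supply of deoxynucleotides carry the copying through. Many of these genes are transcribed together late in G1 by E2F factors once the retinoblastoma protein is phosphorylated. In chronic lymphocytic leukemia most circulating cells rest in G0 or G1, and proliferation takes place mainly in lymphoid tissue.

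Promoters of the genes, taken from RefSeq on GRCm38.p6 as 250 bases before to 50 bases after a start site, were searched on both strands for the E2F letters TTTCCCGC, TTTCGCGC, TTTGCCGC and TTTGGCGC, for CCAAT and for TTTGAA, the core of the cell cycle genes homology region. Ccne2, Gins1, Gins2, Mcm4, Pole and Prim2 had no entry in that set. Of the 37 genes with one, 15 held E2F letters (40.5%), against 2.60% of all 27025 genes with a promoter. CCAAT was found in 24 of the 37 (64.9%), against 41.1% of all genes, and TTTGAA in 5 (13.5%), against 20.2%. Promoters of the 4 genes that were lower in every p53-mutant library than in every Eμ-TCL1 library in ibrutinib at an unadjusted p under 0.05, and of Mcm5, the helicase subunit that varied most, are given below 5′ to 3′ with the E2F letters in capitals (the matches in Mcm5 lie on opposite strands and overlap).
E2f2 promoter, chr4:136172024-136172323, plus strand: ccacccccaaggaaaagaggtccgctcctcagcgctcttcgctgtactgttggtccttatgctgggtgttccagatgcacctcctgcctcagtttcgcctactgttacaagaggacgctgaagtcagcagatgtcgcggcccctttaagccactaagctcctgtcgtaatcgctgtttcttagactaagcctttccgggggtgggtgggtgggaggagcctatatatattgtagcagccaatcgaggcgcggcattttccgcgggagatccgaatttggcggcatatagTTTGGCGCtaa
Dtl promoter, chr1:191575495-191575794, minus strand: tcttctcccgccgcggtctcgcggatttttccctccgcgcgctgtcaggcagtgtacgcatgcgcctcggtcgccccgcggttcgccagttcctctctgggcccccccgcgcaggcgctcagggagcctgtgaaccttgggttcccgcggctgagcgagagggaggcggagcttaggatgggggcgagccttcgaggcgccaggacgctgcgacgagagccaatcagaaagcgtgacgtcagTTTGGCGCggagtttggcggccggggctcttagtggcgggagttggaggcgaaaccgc
Mcm5 promoter, chr8:75109259-75109558, plus strand: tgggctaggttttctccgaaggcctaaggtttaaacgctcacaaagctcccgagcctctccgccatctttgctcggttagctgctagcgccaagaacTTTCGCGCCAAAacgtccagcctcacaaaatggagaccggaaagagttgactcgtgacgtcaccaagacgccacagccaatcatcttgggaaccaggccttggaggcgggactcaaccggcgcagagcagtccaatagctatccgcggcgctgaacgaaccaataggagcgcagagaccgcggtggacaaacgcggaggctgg
Mcm10 promoter, chr2:5012742-5013041, minus strand: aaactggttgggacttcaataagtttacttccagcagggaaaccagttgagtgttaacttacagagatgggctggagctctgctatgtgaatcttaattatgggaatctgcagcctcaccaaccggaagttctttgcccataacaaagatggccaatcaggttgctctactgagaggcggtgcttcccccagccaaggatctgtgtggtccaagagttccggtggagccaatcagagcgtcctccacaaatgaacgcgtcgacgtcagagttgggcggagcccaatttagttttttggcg
Tk1 promoter, chr11:117825965-117826264, minus strand: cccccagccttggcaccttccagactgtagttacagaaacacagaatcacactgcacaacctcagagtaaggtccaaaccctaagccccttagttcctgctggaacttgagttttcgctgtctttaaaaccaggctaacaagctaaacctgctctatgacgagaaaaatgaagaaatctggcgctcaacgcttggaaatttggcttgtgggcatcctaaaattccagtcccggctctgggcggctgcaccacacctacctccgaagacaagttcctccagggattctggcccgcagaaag
E2f2 has a second RefSeq promoter on GRCm38.p6, chr4:136180532-136180831 on the plus strand, which held no E2F letters, CCAAT at 3 places and TTTGAA at 1, and the one given lies upstream of it. The E2f2 match in the upstream window began 39 bases after the start site and the Dtl match 8 bases before it. Mcm10 held CCAAT at 3 places and no E2F letters, and the Tk1 window held none of the letters searched. A match is a run of letters and not a measured binding site, and a window without a match says nothing of the factor.

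The values are read counts scaled by the authors to an effective library size, called normalized CPM here, with scaling factors set separately for each table. Read depth is unknown, so no counting error is given, and levels were tested only within a table. Libraries differed in their cells. The B-cell markers summed to between 3465.4 and 5994.8 in 5 of the 8 DMSO libraries, but to 267.8 and 258.8 in p53-mutant replicates 1 and 2, which had T-cell marker sums of 2060.4 and 2436.7 against 469.2 or less elsewhere in DMSO. p53-mutant replicate 1 in ibrutinib had a B-cell sum of 65.0 and a T-cell sum of 1312.9, and replicate 3 in ibrutinib had 528.6 and 909.6. Eμ-TCL1 replicate 2 in DMSO and replicate 1 in ibrutinib had B-cell sums of 518.7 and 420.3 and myeloid sums of 28996.6 and 20432.0, against 1149.6 or less in every other library, and also erythroid sums of 16697.2 and 14179.5. Of the other 4 ibrutinib libraries, p53-mutant replicates 4 and 5 had B-cell sums of 1465.4 and 1288.1. Eμ-TCL1 replicates 3 and 4 had 3379.9 and 2633.8. T-cell sums in ibrutinib were 464.3 or more in every p53-mutant library and 361.3 or less in every Eμ-TCL1 library. Cell makeup thus differed along with genotype in ibrutinib. All 8 B-cell and 9 T-cell markers were found in every library, with 0 of them at a value of 0. The 2 myeloid-rich libraries were each other's closest match across the tables (Spearman correlation 0.991 over 15869 genes). p53-mutant replicates 1 and 2 in DMSO were both closest to p53-mutant replicate 1 in ibrutinib (0.99 and 0.981). Whether replicates 1 and 2 share a source was not tested, and every test here counts them as separate libraries. Xist was 868.7 or more in all Eμ-TCL1 libraries, whereas it was 1.2 or less in p53-mutant replicates 1, 2 and 4 in DMSO and 1, 3 and 4 in ibrutinib. Replicate 3 of p53-mutant had Xist at 1491.3 in DMSO and 1.0 in ibrutinib, so the shared number does not stand for 1 animal. In bulk RNA fewer cells of a type and less RNA per cell cannot be told apart, and the part of these differences in the results below was not tested except where values without such libraries are given.

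In DMSO the genes lay lower in p53-mutant than in Eμ-TCL1 as a group, but none passed the adjusted threshold of 0.05. The median log2 change, p53-mutant relative to Eμ-TCL1, was -0.60 over the 43 genes and 0.04 over all genes. In all, 37 of the 43 had a negative change and 6 a positive one, beside 46.7% of all genes with a negative change. At an adjusted p under 0.05 (limma, Benjamini-Hochberg over all genes) 0 of the 43 were called, where 0.0121% of all genes were. At an unadjusted p under 0.05, 6 genes were lower and 0 higher, a share of the list that stands beside 4.65% of all genes being lower at that level. These 6 were E2f2, Tk1, Ccne2, Gins2, Cdc6 and Pola1. The count was 3, 15 and 2 without Eμ-TCL1 replicates 2, 3 and 4, beside 5.8%, 7.23% and 4.73% of all genes lower. It was 14 without p53-mutant replicate 4, beside 5.46% of all genes lower. Only E2f2 and Tk1 had every p53-mutant library below every Eμ-TCL1 library, where 2.93% of all genes did. The map of all 43 genes by library shows 1 feature that the medians do not, since 27 genes were highest in Eμ-TCL1 replicate 4 and 9 in Eμ-TCL1 replicate 2, and none in Eμ-TCL1 replicate 3.

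**Figure D1:**
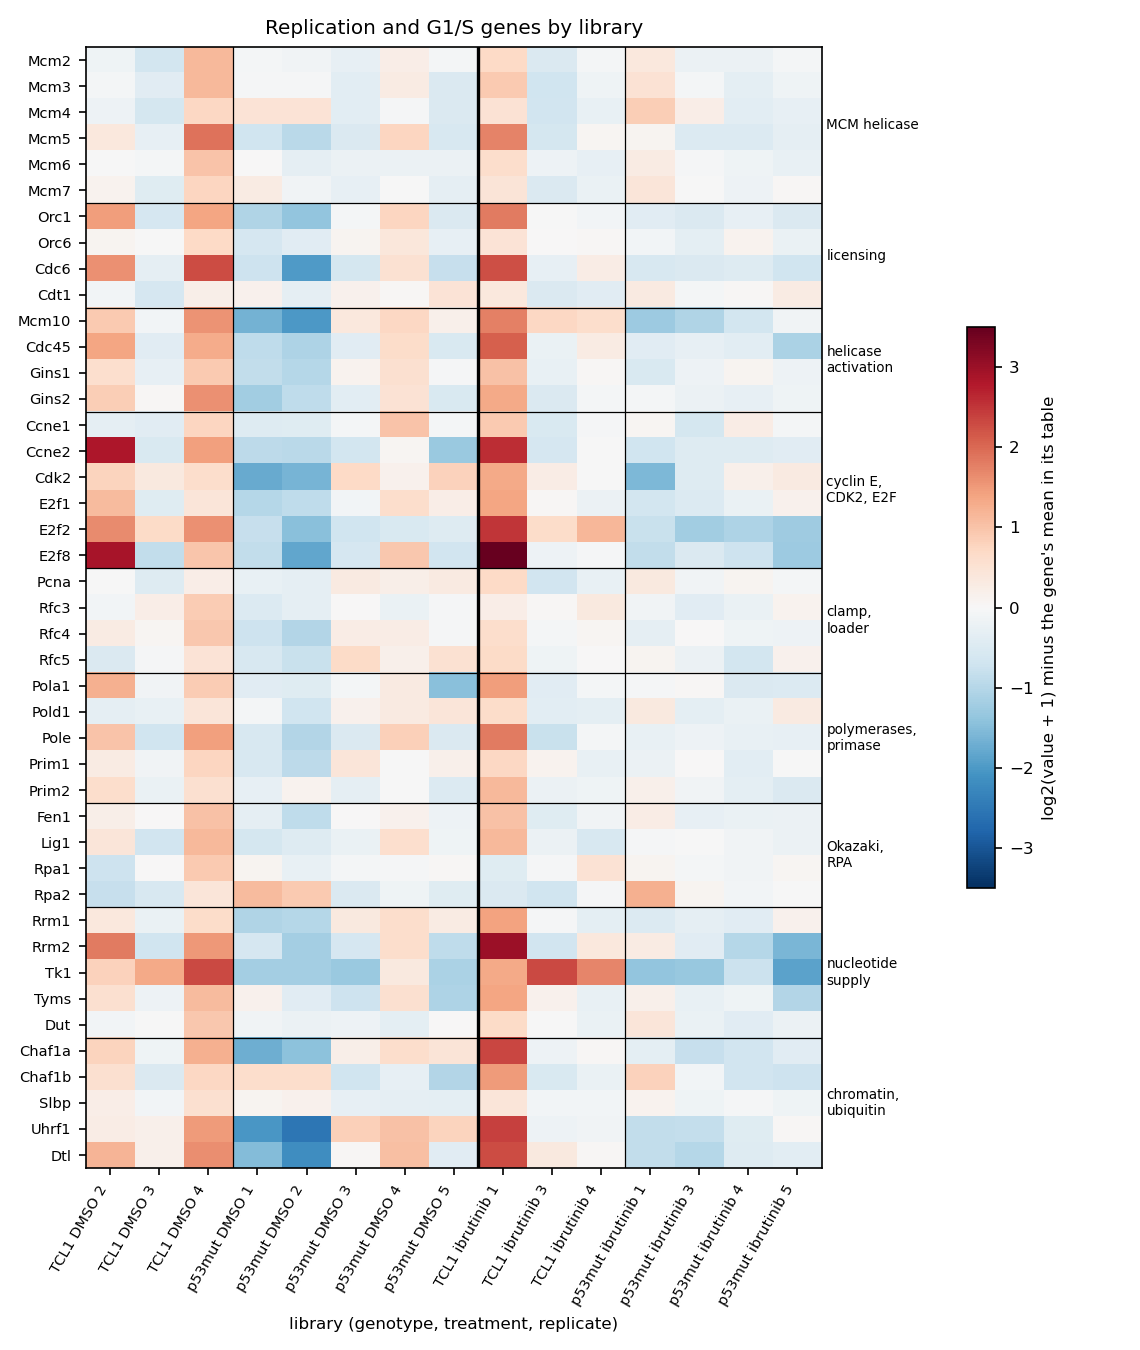
Each cell is the log2 of the value plus 1 of a gene (rows, grouped by role) in a library (columns; TCL1 is Eμ-TCL1 and p53mut is Eμ-TCL1;p53R172H/+), minus the mean of that gene over the libraries of its table. In DMSO 27 genes were highest in TCL1 replicate 4, in ibrutinib 38 genes were highest in TCL1 replicate 1, and E2f2 and Tk1 are above their mean in every TCL1 column.

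In ibrutinib the picture was of the same direction. The median log2 change was -0.42 over the 43 genes and -0.05 over all genes. Of the 43, 37 were negative and 6 positive, beside 54.4% of all genes with a negative change. No gene passed the adjusted threshold, as was the case for all genes of this table (0.0%), with 1973 of 16428 genes at an unadjusted p under 0.05. Of the 43, 4 were lower at an unadjusted p under 0.05, namely Tk1, E2f2, Mcm10 and Dtl, and 0 were higher, beside 6.32% of all genes lower at that level. In 9 genes every p53-mutant library lay below every Eμ-TCL1 library (5.97% of all genes), and these were the 4 named, Cdc6, Cdc45, E2f8, Orc1 and Chaf1a. Without Eμ-TCL1 replicate 1, 7 genes were lower and 2 higher at an unadjusted p under 0.05, beside 9.87% of all genes lower. Without Eμ-TCL1 replicates 3 and 4 the genes at that level numbered 12 and 7, all lower. These stand beside 5.71% and 5.93% of all genes lower. Here 38 of the 43 genes were highest in Eμ-TCL1 replicate 1, the library with the high myeloid and erythroid sums. Without that library the median change was -0.07, with 26 negative and 17 positive. Without all libraries of few B-cell or many myeloid transcripts, the medians were -0.36 in DMSO and -0.11 in ibrutinib. This left 3 p53-mutant and 2 Eμ-TCL1 libraries in each table. Those kept in ibrutinib included p53-mutant replicate 3, with a B-cell sum of 528.6 and a T-cell sum of 909.6. Values without these libraries are therefore not free of differences in cell makeup.

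**Figure D2:**
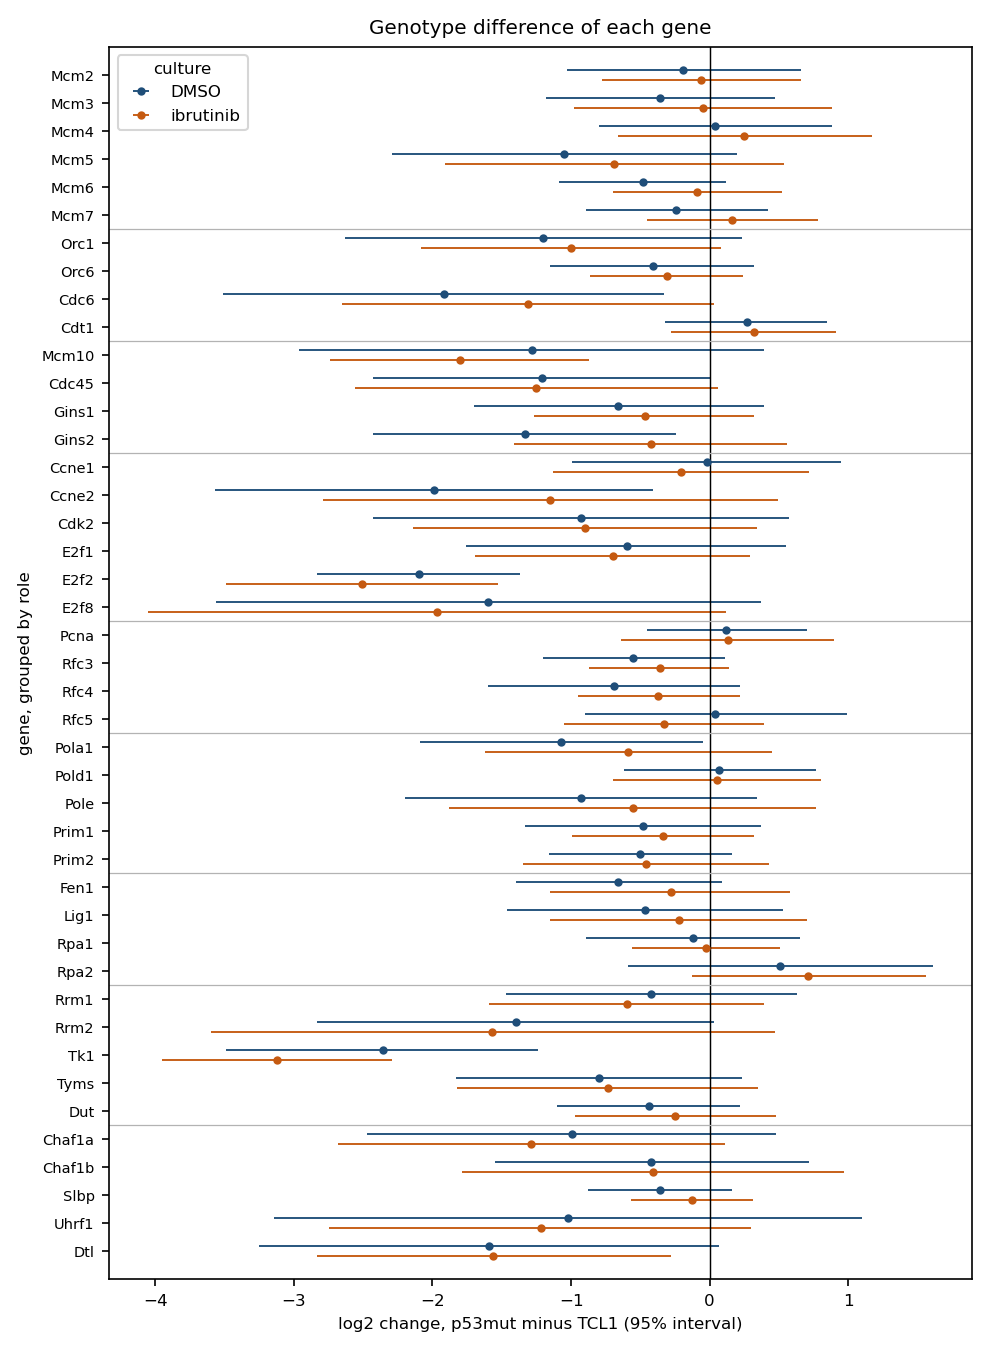
Points are log2 changes of each gene, p53mut (Eμ-TCL1;p53R172H/+) minus TCL1 (Eμ-TCL1), on the log2(value + 1) scale and bars are 95% intervals from limma, in DMSO and in ibrutinib. E2f2 and Tk1 stand apart with intervals that end at -1.37 and -1.24 in DMSO and at -1.53 and -2.29 in ibrutinib, whereas most other intervals cross 0.

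Among cyclin E, Cdk2 and the E2F factors, all 6 genes had negative changes in both tables, with medians of -1.26 in DMSO and -1.03 in ibrutinib. E2f2 (ENSMUSG00000018983, GRCm38 chr4:136172394-136196057, plus strand) encodes a transcription factor of the activating E2F class. In DMSO it was 182.9, 91.8 and 175.9 in Eμ-TCL1 replicates 2, 3 and 4, and 32.3, 20.1, 34.9, 39.3 and 41.6 in p53-mutant replicates 1 to 5. The lowest Eμ-TCL1 library thus lay well above the highest p53-mutant library. The log2 change was -2.10 (standard error 0.32, adjusted p = 0.103), and the exact two-sided permutation test gave p = 0.0179, the smallest that 56 splits allow. Lack of overlap was part of the rule for naming the gene, so this permutation value only restates it and is no further support. In ibrutinib E2f2 was 170.5, 46.4 and 66.3 in Eμ-TCL1 replicates 1, 3 and 4 and 16.7, 12, 13.4 and 11.9 in p53-mutant replicates 1, 3, 4 and 5. The groups again did not overlap, and the change was -2.51 (standard error 0.42, adjusted p = 0.165 by limma). With sample quality weights the changes were -2.03 and -2.19 (adjusted p = 0.00578 and 0.0434), in fits that called 803 of all genes in DMSO (4.88%) and 28 in ibrutinib (0.17%). Without the libraries of few B-cell or many myeloid transcripts the changes were -1.70 in DMSO and -2.07 in ibrutinib. In addition, p53-mutant replicates 3 and 5 in DMSO, which expressed Xist as all Eμ-TCL1 libraries did, had 34.9 and 41.6.

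The other genes of this role did not separate the genotypes in that way. Ccne2, the second cyclin E, was 43.2, 3.3 and 15.6 in Eμ-TCL1 replicates 2, 3 and 4 in DMSO and 2.3, 2.2, 3.0, 5.5 and 1.5 in p53-mutant. Its change of -1.99 (standard error 0.69, adjusted p = 0.546) rested on Eμ-TCL1 replicates 2 and 4, since replicate 3 lay within the p53-mutant range. In ibrutinib it was 24.9 in Eμ-TCL1 replicate 1 and 1.9 and 3.3 in replicates 3 and 4, against 1.7 to 2.3 in p53-mutant. Ccne1, its paralog, had changes of -0.02 and -0.21. E2f8, a repressor of the family, was 53.7 in Eμ-TCL1 replicate 2 and 45.2 in Eμ-TCL1 replicate 1 in ibrutinib, both from the libraries rich in myeloid and erythroid transcripts, and at most 13.7 in any other library. E2f1 had changes of -0.60 and -0.70. Cdk2, the catalytic partner of cyclin E, was 7.0 and 7.9 in p53-mutant replicates 1 and 2 in DMSO, which had few B-cell transcripts. It was between 29.1 and 46.4 in the other 6 DMSO libraries. In ibrutinib Cdk2 was 4.9 in p53-mutant replicate 1 and 11.8 or more in every other library. Its changes were -0.93 in DMSO and -0.9 in ibrutinib, and the part of cell makeup in them was not tested.

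Of the 5 genes of nucleotide supply all had negative changes in both tables (medians -0.80 and -0.73), and Tk1 had the lowest p of the list in ibrutinib. Tk1 (ENSMUSG00000025574, GRCm38 chr11:117815526-117826092, minus strand) encodes the cytosolic thymidine kinase that salvages thymidine in S phase. In DMSO it was 15.2, 22.4 and 44.8 in Eμ-TCL1 replicates 2, 3 and 4, and 3.1, 3.1, 2.8, 10.7 and 3.3 in p53-mutant replicates 1 to 5. All Eμ-TCL1 libraries were above all p53-mutant libraries, with p53-mutant replicate 4 apart from its group. The change was -2.36 (standard error 0.49, adjusted p = 0.285). In ibrutinib Tk1 was 14.8, 30.3 and 19.4 in Eμ-TCL1 replicates 1, 3 and 4 and 1.4, 1.5, 2.7 and 0.7 in p53-mutant replicates 1, 3, 4 and 5. That is a change of -3.12 (standard error 0.35, adjusted p = 0.103 by limma), and the exact permutation test gave p = 0.0286, the smallest that 35 splits allow. As for E2f2, this permutation value only restates the lack of overlap by which the gene was named. With sample quality weights the changes were -3.00 and -3.18 (adjusted p = 0.00616 and 0.0369), in the same fits of 803 and 28 called genes. Without the libraries of few B-cell or many myeloid transcripts they were -2.51 and -3.33. Only 83 of the 5198 exonic bases of Tk1 are shared with another gene, and E2f2 shares none. Rrm2, the regulated subunit of ribonucleotide reductase, had a change of similar sign in DMSO (-1.40, adjusted p = 0.623) but overlapping groups, at 12.1 in Eμ-TCL1 replicate 3 and 8.4 to 31.9 in p53-mutant. Rrm1, Tyms and Dut had changes from -0.80 to -0.25.

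**Figure D3:**
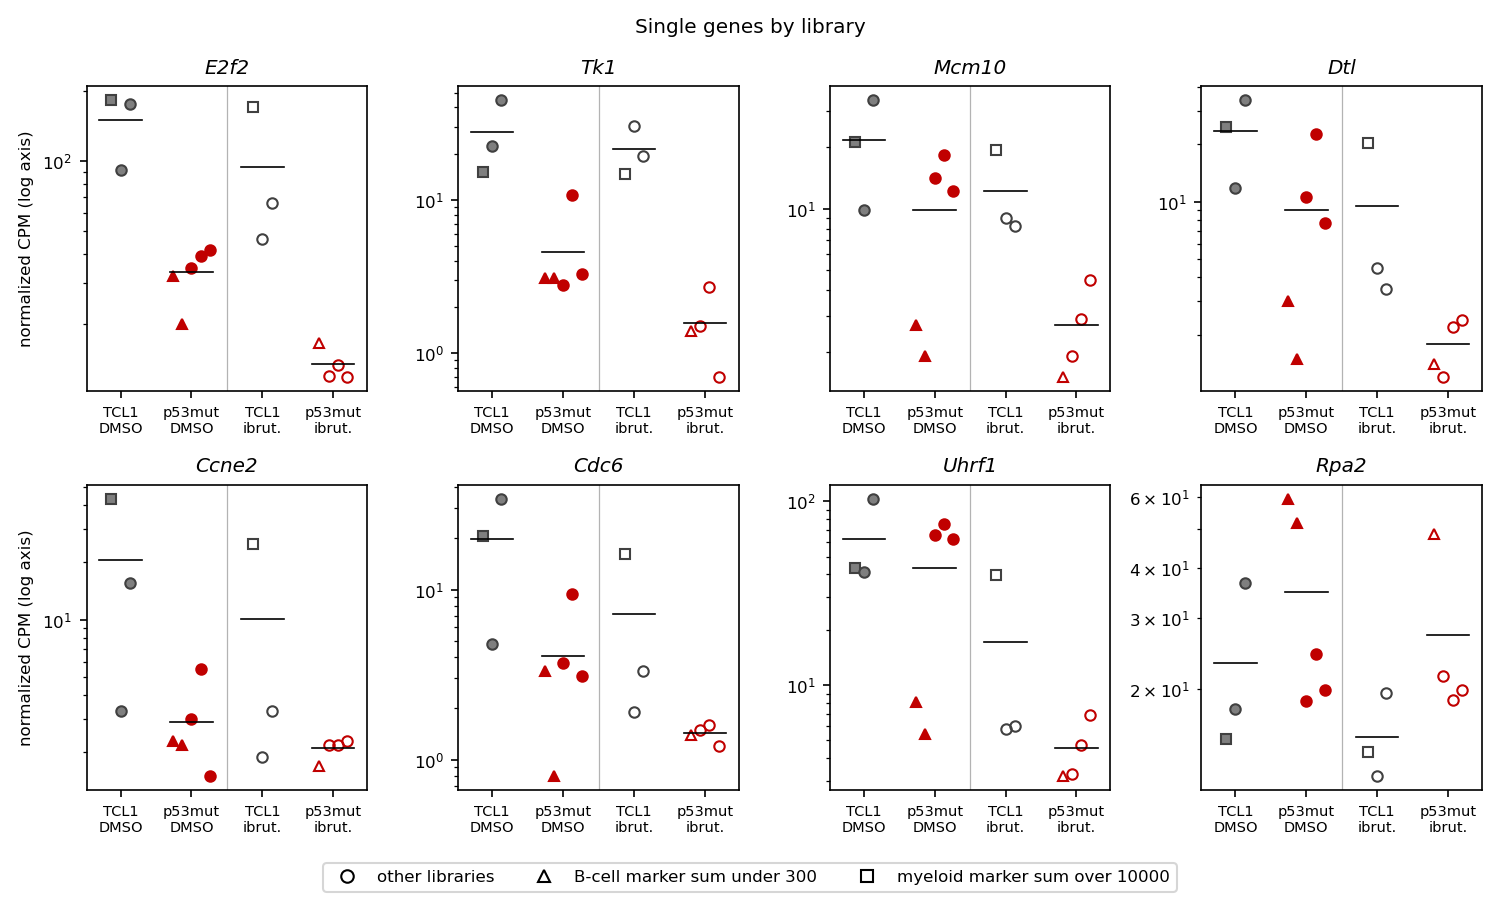
Values of 8 genes in every library on log axes, by genotype (grey TCL1, Eμ-TCL1; red p53mut, Eμ-TCL1;p53R172H/+) and culture (filled DMSO, open ibrutinib); black lines are group means, triangles are libraries with a B-cell marker sum under 300 and squares libraries with a myeloid sum over 10000. E2f2 and Tk1 separate the genotypes in both cultures, and Mcm10, Dtl and, narrowly, Cdc6 (1.9 against 1.6) in ibrutinib. In Ccne2 and Cdc6 the squares and 1 further TCL1 library lie high. In Uhrf1 the filled triangles are the lowest points of DMSO (8.1 and 5.4), and in Rpa2 the open triangle (48.7) is the highest of p53mut in ibrutinib.

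E2f2 and Tk1 were then set against the rest of the list within a library, a measure that the separate scaling of the tables touches only through the pseudocount. On the log2 scale E2f2 lay between 2.28 and 2.86 above the median of the other 42 genes in the 6 Eμ-TCL1 libraries and between 0.69 and 1.45 above it in the 9 p53-mutant libraries. Tk1 lay between -0.96 and 1.81 relative to that median in Eμ-TCL1 and between -2.35 and -0.99 in p53-mutant. p53-mutant replicate 4 in DMSO is given as an example, picked with its values seen. The median of the 43 genes, taken relative to the median of all shared genes, was 0.78 there and 0.13 in Eμ-TCL1 replicate 3 in DMSO. E2f2 and Tk1 were 39.3 and 10.7 in the former and 91.8 and 22.4 in the latter. These ranges were described after the values were seen and were not tested. Both genes were named for the lack of overlap of these same values, so the ranges largely restate it and are no further support. Same-numbered libraries of a genotype deviated together across the tables (correlations 0.71 to 0.84), except p53-mutant replicate 3 (-0.10). Such correlations cannot tell a shared source from a like cell makeup. The 6 and the 9 libraries therefore cannot be taken as independent, nor the ibrutinib values as an independent repeat of those in DMSO.

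**Figure D4:**
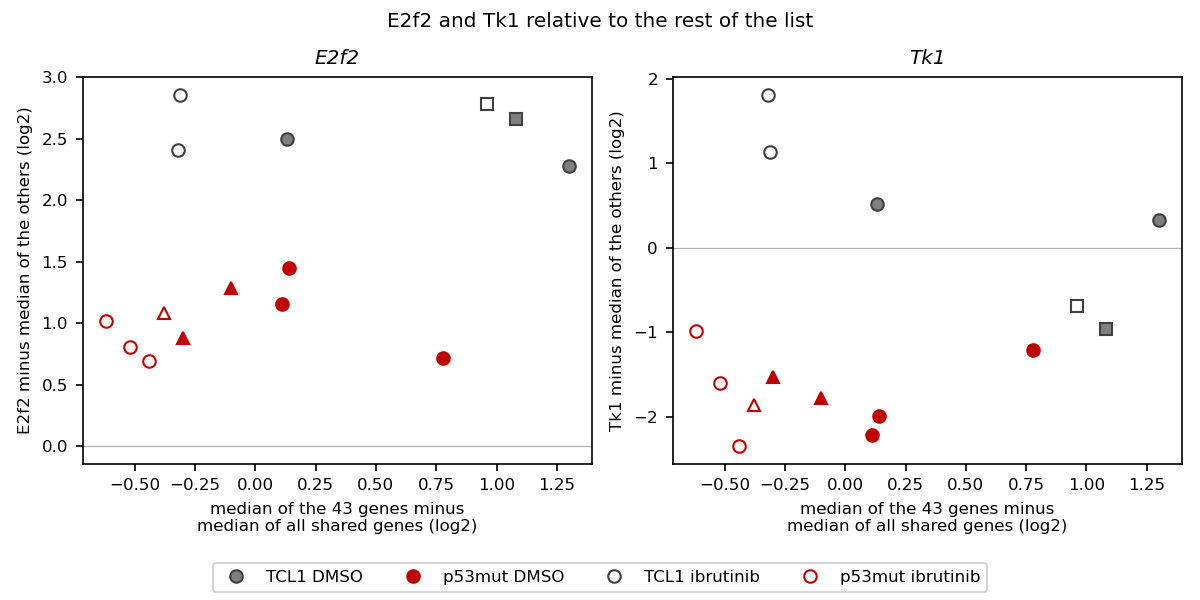
Each point is a library; the horizontal axis is the median log2 value of the 43 genes minus that of all genes in both tables, and the vertical axis the log2 value of E2f2 or Tk1 minus the median of the other 42 genes (colors and shapes as in the plot of single genes). All 6 TCL1 (Eμ-TCL1) libraries lie above all 9 p53mut (Eμ-TCL1;p53R172H/+) libraries in both panels, by a narrow margin for Tk1 (-0.96 against -0.99). Both genes were named for the lack of overlap of these same values. Most same-numbered libraries of a genotype deviated together across the tables, so the points cannot be taken as independent.

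Of the 4 genes of origin recognition and licensing, Cdc6 had the lowest p in both tables. Cdc6, the loader that brings the helicase to the origin, was 20.7, 4.8 and 34.1 in Eμ-TCL1 replicates 2, 3 and 4 in DMSO and 3.3, 0.8, 3.7, 9.4 and 3.1 in p53-mutant. Replicate 3 of Eμ-TCL1 was lower than p53-mutant replicate 4, so the groups overlapped, and the change was -1.92 (standard error 0.70, adjusted p = 0.558). In ibrutinib Cdc6 was 16.2, 1.9 and 3.3 in Eμ-TCL1 and 1.2 to 1.6 in p53-mutant (change -1.31, adjusted p = 0.424), and the change was -0.54 without Eμ-TCL1 replicate 1. Orc1, the ATPase subunit of the origin recognition complex, had changes of -1.20 and -1.0 but was at 0.2 to 0.4 in p53-mutant in ibrutinib, close to the rounding step of 0.1. Cdt1, which works with Cdc6 in loading, had positive changes in both tables (0.27 and 0.32, adjusted p = 0.723 and 0.608), with overlapping groups. Orc6 had changes of -0.41 and -0.31.

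All 4 genes of helicase activation had negative changes in both tables (medians -1.25 and -0.86). Mcm10 was 21.2, 9.9 and 34.1 in Eμ-TCL1 replicates 2, 3 and 4 in DMSO and 2.7, 1.9, 14.1, 18.3 and 12.2 in p53-mutant. The p53-mutant libraries thus divided into replicates 1 and 2, with few B-cell transcripts, and replicates 3 to 5, each above Eμ-TCL1 replicate 3. The change of -1.28 (adjusted p = 0.645) was -0.32 without the libraries of few B-cell or many myeloid transcripts. In ibrutinib Mcm10 was 19.3, 9.0 and 8.2 in Eμ-TCL1 replicates 1, 3 and 4 and 1.5, 1.9, 2.9 and 4.5 in p53-mutant, without overlap. The log2 change there was -1.80 with a standard error of 0.40 (adjusted p = 0.222), and -1.28 without those libraries. Gins2, a subunit of the GINS complex, had a change of -1.33 in DMSO (adjusted p = 0.553) with values from 2.6 to 9.5 in Eμ-TCL1 and 0.5 to 4.0 in p53-mutant. Of its 4097 exonic bases 2758 are shared with another gene, and the strand setting of the counting is not given in the sources used here. Cdc45 had changes of -1.21 and -1.25, and in ibrutinib its groups met at 3.8 and 3.9. Gins1 had changes of -0.66 and -0.47.

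The 6 subunits of the MCM helicase had small changes with wide intervals, with medians of -0.30 in DMSO and -0.06 in ibrutinib and 0 subunits at an unadjusted p under 0.05. Mcm5 had the lowest p, with changes of -1.05 (95% interval -2.29 to 0.20) and -0.69 (-1.91 to 0.54). It was 63.6, 40.2 and 186.6 in Eμ-TCL1 replicates 2, 3 and 4 in DMSO and 30.0, 25.0, 34.6, 84.7 and 33.0 in p53-mutant. The Mcm5 change was -0.43 in DMSO without Eμ-TCL1 replicate 4, and in ibrutinib -0.01 with Eμ-TCL1 replicate 1 left out and -1.20 with replicate 3 left out. The changes of Mcm2, Mcm3, Mcm4, Mcm6 and Mcm7 lay between -0.48 and 0.04 in DMSO and between -0.09 and 0.25 in ibrutinib. Per kb of exon, Mcm6 was the highest subunit in 10 of the 15 libraries, and Mcm2 the lowest in 9. Mcm5 varied relative to the other subunits. Its value per kb over the median of the other 5 was 1.04, 0.844 and 1.54 in Eμ-TCL1 in DMSO and 0.484, 0.402, 0.695, 1.19 and 0.731 in p53-mutant, and 1.21, 0.581 and 0.722 in Eμ-TCL1 in ibrutinib against 0.465, 0.458, 0.520 and 0.501 in p53-mutant. In ibrutinib the genotypes did not overlap in this ratio, and in DMSO they did through p53-mutant replicate 4. Mcm4 was the highest subunit in p53-mutant replicates 1 and 2 in DMSO and replicate 1 in ibrutinib, the libraries with the highest T-cell sums.

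**Figure D5:**
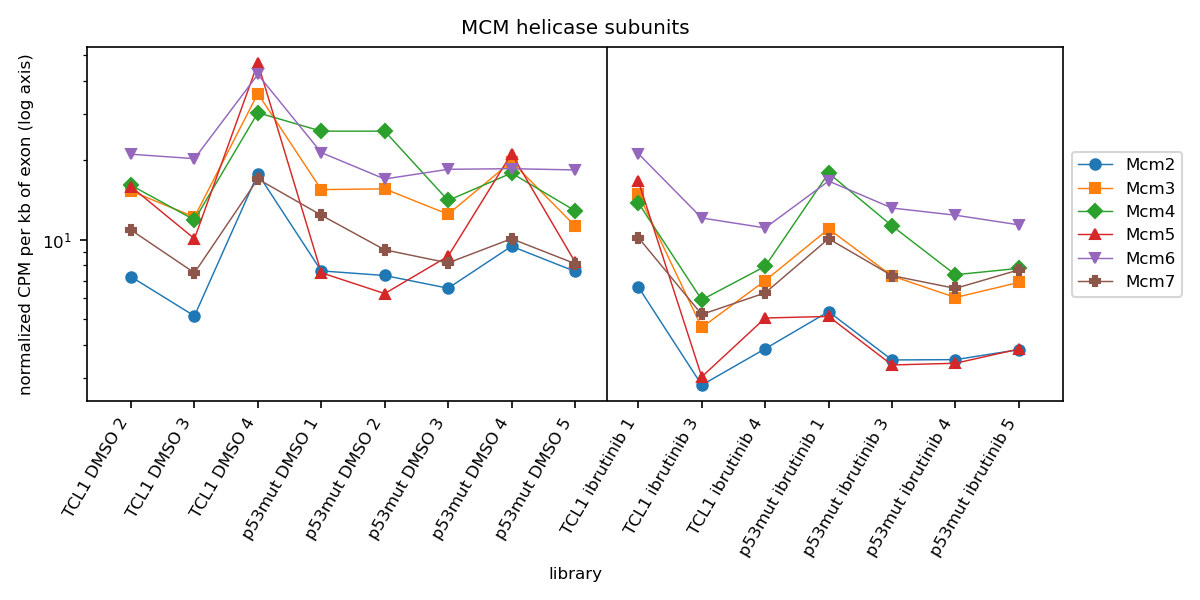
Values of Mcm2 to Mcm7 divided by exon length (normalized CPM per kb, log axis) in each library (TCL1, Eμ-TCL1; p53mut, Eμ-TCL1;p53R172H/+); lines only connect points of 1 gene within a table and imply no order. Mcm6 is highest in 10 of the 15 libraries, and Mcm5 ranges from the highest subunit in TCL1 DMSO 4 to the lowest in p53mut DMSO 1 and 2.

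In the clamp and its loader the median changes were -0.25 and -0.35. Pcna, the sliding clamp, was 52.4, 39.0 and 63.1 in Eμ-TCL1 in DMSO and 44.3, 42.7, 66.3, 61.2 and 66.4 in p53-mutant, a change of 0.12 (95% interval -0.45 to 0.70), and in ibrutinib the change was 0.13 (-0.64 to 0.90). Among polymerases and primase the medians were -0.50 and -0.46. Pola1, the catalytic subunit of polymerase alpha, had a change of -1.07 in DMSO (adjusted p = 0.599), with 77.9, 29.5 and 61.1 in Eμ-TCL1 and 24.4, 24.0, 30.6, 40.6 and 11.2 in p53-mutant, so Eμ-TCL1 replicate 3 lay within the p53-mutant range. In ibrutinib it was -0.59 (adjusted p = 0.591), and -0.03 without Eμ-TCL1 replicate 1. Pold1, the catalytic subunit of polymerase delta, had changes of 0.07 and 0.05.

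Among Okazaki fragment and single-strand binding genes the medians were -0.29 and -0.13. Fen1, the flap nuclease, had the lowest p in DMSO (change -0.66, adjusted p = 0.636), and 2039 of its 2422 exonic bases are shared with other genes. Rpa2, the middle subunit of replication protein A, had the largest positive change of the list in both tables, 0.51 (adjusted p = 0.719) and 0.71 (adjusted p = 0.473). It was 59.5 and 51.7 in p53-mutant replicates 1 and 2 in DMSO and 48.7 in replicate 1 in ibrutinib, the libraries with the highest T-cell sums. In any other library it was at most 36.7. Without the libraries of few B-cell or many myeloid transcripts the change was -0.29 in DMSO and 0.36 in ibrutinib. Rpa1, its large subunit partner, had changes of -0.12 and -0.03.

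The 5 genes of chromatin assembly, histone RNA and ubiquitin all had negative changes (medians -0.99 and -1.22). Dtl, the substrate receptor of the ubiquitin ligase that removes Cdt1 during S phase, was 24.7, 11.8 and 34.2 in Eμ-TCL1 in DMSO and 3.0, 1.5, 10.6, 22.6 and 7.7 in p53-mutant (change -1.59, adjusted p = 0.623). In ibrutinib it was 20.4, 4.5 and 3.5 in Eμ-TCL1 and 1.4, 1.2, 2.2 and 2.4 in p53-mutant, without overlap (change -1.56, standard error 0.55, adjusted p = 0.347), with -0.85 without Eμ-TCL1 replicate 1 and -0.79 without the libraries of few B-cell or many myeloid transcripts. Uhrf1, which keeps DNA methylation through replication, was 8.1 and 5.4 in p53-mutant replicates 1 and 2 in DMSO and 41.1 to 102.9 in the other 6 libraries. Slbp, the binding protein of histone mRNA, had changes of -0.36 and -0.13. Chaf1a had -0.99 and -1.29, with 4648 of its 8854 exonic bases shared with another gene.

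Levels in ibrutinib are set beside those in DMSO without a test, since the tables were scaled separately. In DMSO the values of the 43 genes added up to 1770 ± 725 (SD, n = 3) for Eμ-TCL1. For p53-mutant they added up to 1160 ± 206 (SD, n = 5). In ibrutinib the sums were 906 ± 474 (SD, n = 3) for Eμ-TCL1 and 610 ± 89.0 (SD, n = 4) for p53-mutant. For libraries that share a genotype and a number, the median over the 43 genes of the log2 value in ibrutinib minus that in DMSO was -0.94 and -1.93 for Eμ-TCL1 replicates 3 and 4, and -0.50, -1.48 and -0.97 for p53-mutant replicates 1, 4 and 5. Over all shared genes that median was between -0.34 and -0.19 for the same libraries. All 43 genes were listed lower in ibrutinib for Eμ-TCL1 replicate 4 and p53-mutant replicate 4. The pair of libraries with high myeloid and erythroid sums, Eμ-TCL1 replicate 2 in DMSO and replicate 1 in ibrutinib, differed by a median of -0.13, beside -0.18 over all shared genes.

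Uhrf1 shows the range of these differences. It was 102.9 in DMSO and 6.0 in ibrutinib in Eμ-TCL1 replicate 4, 75.2 and 4.7 in p53-mutant replicate 4, and 62.2 and 6.9 in p53-mutant replicate 5. In p53-mutant replicate 1, with few B-cell transcripts, it was 8.1 and 3.2, and in the libraries with high myeloid sums 43.2 and 39.7. Tk1 was listed higher in ibrutinib in Eμ-TCL1 replicate 3, at 22.4 in DMSO and 30.3 in ibrutinib, where 41 of the 43 genes were listed lower. Taken within a library, the median of the 43 genes minus the median of all shared genes was between 0.13 and 1.30 in Eμ-TCL1 and between -0.30 and 0.78 in p53-mutant in DMSO. In ibrutinib it was -0.32 and -0.31 in Eμ-TCL1 replicates 3 and 4, 0.96 in Eμ-TCL1 replicate 1, and between -0.62 and -0.38 in p53-mutant.

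Whether the genotype difference itself differed between DMSO and ibrutinib was fitted as an interaction over all 15 libraries for the genes in both tables. The fit treated all libraries as independent, although most same-numbered libraries of a genotype deviated together across the tables. None of the 43 passed the adjusted threshold (0.0% of all genes) or an unadjusted p under 0.05, beside 0.523% of all genes at that level. The median difference of log2 changes, ibrutinib minus DMSO, was 0.10, with 13 negative and 30 positive, and -0.07 over all genes. Tk1, Mcm10 and E2f2 had the largest differences against that median, -0.76, -0.52 and -0.41, each with an adjusted p of 1.0. With a replicate block 1 member, with a positive difference, was at an unadjusted p under 0.05, beside 802 of all genes (83 without the block), none passed the adjusted threshold and the median was 0.31.

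The genes varied together across libraries, some members more than others. The correlation of a gene's log2 value with the median of the other 42 genes was 0.75 at the median over the 8 DMSO libraries and above 0.7 for 26 genes, and 0.86 at the median over the 7 ibrutinib libraries and above 0.7 for 33 genes. The points share scaling factors and cell makeup, so these are descriptions. Genes with low correlations in DMSO were Rpa2 (-0.34), Mcm4 (0.16), Cdt1 (0.18) and Chaf1b (0.19). In ibrutinib they were Rpa1 (-0.51), Rpa2 (-0.37), Cdt1 (0.36), Mcm4 (0.37) and Tk1 (0.43).

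Other genes of replication and G1/S control, a list of 62 that holds none of the 43, had median changes of -0.09 in DMSO and -0.07 in ibrutinib. Of the 61 measured in DMSO 8 were lower and 1 higher at an unadjusted p under 0.05, beside 4.65% of all genes lower. Of the 62 in ibrutinib 5 were lower and 0 higher, a share close to the 6.32% of all genes lower. None passed the adjusted threshold in either culture. Rfc2, a clamp loader subunit, had a change of -0.64 in DMSO (adjusted p = 0.550), and Tfdp1, the dimer partner of the E2F factors, one of -1.43 in ibrutinib (adjusted p = 0.257). Ccna2, the cyclin of S phase and G2, had changes of -1.57 and -2.04 (adjusted p = 0.553 and 0.346). Cdkn2b, an inhibitor of Cdk4 and Cdk6, was the 1 gene higher in DMSO, with a change of 1.80 (adjusted p = 0.560), and had a change of 0.03 in ibrutinib. A list of 30 mitotic genes had larger median changes than the 43, at -1.44 in DMSO and -1.80 in ibrutinib. Of the 30, 24 and 27 were lower at an unadjusted p under 0.05, beside 4.65% and 6.32% of all genes, and 0 passed the adjusted threshold. That difference between lists was not tested.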

How the data were processed

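The labels describe 15 RNA-seq libraries. Per the labels and the methods, the authors aligned reads and counted them per gene with HTSeq on GRCm38, filtered genes of low expression and normalized with edgeR. The submitters' processing notes also name TopHat2 2.0.12 and SAMtools 0.1.19. The deposited values are a signal, which the authors made by scaling counts to an effective library size (CPM), 1 table per treatment, rounded to 0.1. Whole reads could not be recovered, so no count test was run and depth is unknown.

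Genotypes were compared within each table in R 4.3.3 by limma 3.58.1 (lmFit, then eBayes with a mean-variance trend) on log2(value + 1), over all genes, adjusted by Benjamini-Hochberg with 0.05 as the threshold, and the interaction over 15869 shared genes. With the pseudocount of 1, changes of low genes are understated. Single values were compared by exact two-sided permutation tests. Steps were tested on simulated data. Nothing in the labels says whether a library is 1 mouse, so p-values measure the spread between these libraries.

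The members, role lists, marker lists and tests were chosen with earlier results of these data known. Named were members at an unadjusted p under 0.05 without overlap (up to 10 per comparison), the member of lowest p per role and table, up to 3 members per comparison with the largest change against the median, Mcm2 to Mcm7, and the 2 other replication genes of lowest p per comparison. Any other gene was named with its values already seen. As alternatives the pseudocount was 0.1 or 5, genes with a mean under 5 were dropped, values were quantile normalized, limma's sample quality weights or a replicate block were added, each library was left out, and also libraries of few B-cell transcripts and, chosen after seeing the data, those together with libraries of many myeloid transcripts. Exon lengths and overlaps are from GENCODE M21 on GRCm38. Of the 43 symbols 37 matched a RefSeq promoter. Figures were drawn with matplotlib 3.10.9.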

Additional observations from a re-analysis of the deposited data

Results flagged for a closer look

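Each member was checked in the 2 groups of 4 or 5 libraries for a highest or lowest library that stands apart from the others (Dixon's criterion). The checks used unlogged values of genes that vary together. The rate by chance for independent checks, about 1 in 20, therefore does not apply to their count. Of 86 checks, 10 met the criterion. In DMSO 7 of these were the highest value of p53-mutant and came from replicate 4. Mcm5 was 84.7 there against 25.0 to 34.6 in the other 4 libraries, Pole 39.1 against 10.2 to 15.1, and Rrm2 31.9 against 8.4 to 13.3. Ccne1 was 28.0 against 9.6 to 13, Cdc45 15.1 against 3.9 to 6.9, E2f8 13.3 against 1.1 to 4.0, and Tk1 10.7 against 2.8 to 3.3. In ibrutinib 3 came from p53-mutant replicate 1, which had the lowest B-cell marker sum. Rpa2 was 48.7 against 18.7 to 21.5 in the other 3 libraries, Fen1 13.7 against 9.0 to 9.6, and Ccne2 was the lowest at 1.7 against 2.2 to 2.3. No interaction of genotype and treatment passed the adjusted threshold for any member.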

How the results depend on the processing

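Depth is unknown, libraries differ in cells and sex along with genotype, and groups of 3 to 5 limit every test, so a gene that misses the threshold is not shown to be alike. The 43 genes stayed lower by median in both tables under every alternative run. E2f2 and Tk1 stayed lower in both tables in every fit, from -2.42 to -1.93 and -2.70 to -1.95 in DMSO, and from -2.90 to -1.97 and -3.35 to -2.86 in ibrutinib, with each library left out in turn. Sample quality weights called 2 members in DMSO and 2 in ibrutinib, E2f2 and Tk1 in both, but also 803 of all genes in DMSO (4.88%, against 2 genes without weights) and 28 in ibrutinib (0.17%, against 0). They put 23 members lower at an unadjusted p under 0.05 in DMSO. There 4147 of all genes (25.2%) were at that level in either direction. In the interaction 5 members were at that level under the weights, all positive. These stand beside 1143 of all genes (7.2%) with the weights, against 83 without them. Under these weights E2f2 changed by -2.03 and -2.19 (adjusted p = 0.00578 and 0.0434) and Tk1 by -3.00 and -3.18 (adjusted p = 0.00616 and 0.0369), and over all alternatives adjusted p ran from 0.00578 to 0.760 for E2f2 and from 0.00616 to 0.760 for Tk1 in DMSO, and from 0.0434 to 0.549 and from 0.0369 to 0.501 in ibrutinib. A mean value of at least 5 left 39 members in DMSO and 34 in ibrutinib and gives no value for the rest. Members at an unadjusted p under 0.05 numbered 2 in DMSO without the libraries of few B-cell transcripts, beside 11.2% of all genes. An alternative chosen after seeing the data also left out the libraries of many myeloid transcripts. With it, members at that level numbered 2 in DMSO and 8 in ibrutinib (7 lower, 1 higher), beside 17.1% and 17.7% of all genes. With a pseudocount of 0.1 members at that level numbered 7 in ibrutinib, beside 12.4% of all genes. With each library left out in turn the count ran from 2 to 15 in DMSO (3 without Eμ-TCL1 replicate 2, 15 without replicate 3, 2 without replicate 4 and 14 without p53-mutant replicate 4), from 3 to 12 in ibrutinib (9, of which 2 higher, without Eμ-TCL1 replicate 1, and 12 and 7 without replicates 3 and 4) and from 0 to 1 in the interaction. In those fits the share of all genes at that level ran from 6.05% to 10.6% in DMSO and from 7.5% to 15.9% in ibrutinib. In the interaction the share ran from 0.202% to 1.24%. The median change of the members ran from -0.86 to -0.37 in DMSO and from -0.74 to -0.07 in ibrutinib, and the median interaction from -0.15 to 0.53. That interaction median was negative without Eμ-TCL1 replicate 4 in DMSO (-0.15), without Eμ-TCL1 replicates 3 and 4 in ibrutinib (-0.10 and -0.09) and without libraries of few B-cell transcripts (-0.06). The cause of these moves was not tested.

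Same-numbered libraries of the 2 genotypes did not deviate together (correlations from -0.17 to 0.25). Across tables, same-numbered libraries of a genotype did (0.71 to 0.84), except p53-mutant replicate 3 (-0.10). Because of that exception the numbers were not used as pairs in the main fits. The main interaction thus treats libraries that deviate together as independent. The 2 tables may largely share source cells, which the labels do not state. With the replicate block 3 members were at an unadjusted p under 0.05 in DMSO, 4 in ibrutinib and 1 in the interaction. These stand beside 5.89%, 9.07% and 5.05% of all genes at that level. The medians were -0.52, -0.43 and 0.31. In the interaction 802 of all genes were at that level against 83 without the block, and 0 members passed the adjusted threshold.

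Changes of sign touched members with small changes. With each library left out in turn, Mcm2, Mcm3, Mcm4, Mcm7 and Pcna ran from -0.56 to 0.32, -0.67 to 0.10, -0.25 to 0.41, -0.52 to 0.06 and -0.06 to 0.28 in DMSO, Mcm2, Mcm3, Mcm4, Mcm6 and Mcm7 from -0.33 to 0.26, -0.41 to 0.40, -0.01 to 0.58, -0.27 to 0.19 and -0.03 to 0.43 in ibrutinib, and the interaction of E2f2 from -0.80 to 0.13. In DMSO Mcm4 was -0.02 with quantile normalization, -0.62 with quality weights, -0.28 without libraries of few B-cell transcripts and -0.36 also without those of many myeloid transcripts, and Rpa2 was -0.39, -0.04 and -0.29 under the weights and these restrictions. In ibrutinib Mcm2, Mcm3 and Mcm6 were 0.03, 0.04 and 0.02 with quantile normalization, 0.06, 0.15 and 0.09 with quality weights, and 0.13, 0.22 and 0.08 without libraries of few B-cell or many myeloid transcripts.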

Other observations

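Chromosome 11, which carries Trp53, also carries 3 of the 43 genes. Rpa1 lies at chr11:75298166-75348324, Cdc6 at chr11:98907801-98923940 and Tk1 at chr11:117815526-117826092 (GRCm38). Their log2 changes were -0.12, -1.92 and -2.36 in DMSO and -0.03, -1.31 and -3.12 in ibrutinib. Pola1 is the member on chromosome X, and in p53-mutant it was 30.6 and 11.2 in replicates 3 and 5 in DMSO, which expressed Xist, and 24.4, 24.0 and 40.6 in replicates 1, 2 and 4, which did not.

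Within libraries, Pcna also lay higher against the rest of the list in p53-mutant, and so did Ccne1 with overlap. The list itself had median changes of -0.60 in DMSO and -0.42 in ibrutinib, so a gene with no change rises on this measure. Pcna lay between 0.76 and 1.28 above the median of the other 42 genes (log2) in the 6 Eμ-TCL1 libraries and between 1.35 and 2.11 above it in the 9 p53-mutant libraries, without overlap, while its change between genotypes was 0.12 in DMSO and 0.13 in ibrutinib. Ccne1 lay between -1.43 and -0.65 in Eμ-TCL1 and between -1.08 and 0.24 in p53-mutant. These values were seen before they were described and were not tested. Not all members were examined on this measure, and most same-numbered libraries of a genotype deviated together across the tables.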
